A study of Onthophagus taurus and Onthophagus nigriventris with 71 samples.

Results

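The arrays described here set the legs of the horned beetle Onthophagus taurus against its abdomen. They are the 12 arrays, of 71 in the series, whose labels name legs and O. taurus, and every such array was used: 4 female, 4 large male and 4 small male arrays. Males of this species come in 2 forms. Large horned males fight for access to females, and small males with little or no horn sneak matings, so that the species has 3 adult forms, counting females, that differ in the outgrowths they bear. All animals were wild type, unmanipulated, reared in the laboratory and taken as pupae no more than 24 h after pupation. Females were of a range of body sizes, large males were of the horned form and small males of the sneaker form. Each array compared 2 pools of tissue, 1 of legs and 1 of dorsal abdominal epidermis, and each pool held tissue of 4 individuals of that sex and form. The labels name the legs as "dissected legs", while the head, thorax and abdomen samples are named as dorsal epidermis, so the leg pools may hold tissue other than epidermis that the abdominal pools do not. The labels number the replicates but do not say that the pools came from separate rearings, so the p-values below measure the spread between these pools. In such bulk samples fewer cells of a type and less RNA per cell cannot be told apart.

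An insect leg is a segmented appendage that grows out of the body wall. Inside its cuticle and epidermis it carries muscles, sensory neurons, tracheae and haemolymph. The dorsal abdominal epidermis forms no outgrowth, which is why the study took it as the tissue of comparison, for the legs as for the head and the thorax, where horns form. The genes that pattern insect legs, such as Distal-less and dachshund, are known from flies and other insects, and horn growth in this genus has been studied in relation to them. None of them could be looked up here: the 3840 probes of the array carry only plate and well names, and 0 of the 3840 names matched any of the 16956 genes of the RefSeq annotation table of assembly IU_Otau_3.0. Probes are therefore named as deposited, such as OtL009-F10, in which L or P marks the series of plates and F10 the well. Gene functions, the planned gene lists and the markers of muscle, nerve, fat body, haemocytes and trachea were not analysed here, so the labelled tissue was not checked against markers.

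The deposited values are log ratios, 1 for each probe and array, with no value missing, and are taken as log2. The study's design text describes legs relative to abdomen, so a positive ratio is likely more RNA in legs than in abdomen, but no header or label states which tissue is the numerator. If the ratios run the other way, every sign below turns and no size or p-value changes. In each group the legs carried Cy5 on replicates 2 and 4 and Cy3 on replicates 1 and 3, so that a dye effect enters both orientations equally. The deposited ratios of both orientations ran the same way: the 12 arrays correlated positively in all 66 pairs, and the mean r across probes was 0.855 for pairs of the same orientation and 0.850 for pairs of opposite orientation. Ratios left as Cy5 over Cy3 would have had opposite signs in the 2 orientations.

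The 66 correlations across 3840 probes ran from 0.711 to 0.940. Arrays of the same group were on average hardly more alike (mean r = 0.858) than arrays of different groups (mean r = 0.850). That mean joins unlike groups. Pairs of female arrays had r from 0.903 to 0.936, large male pairs from 0.734 to 0.939 and small male pairs from 0.797 to 0.876. Large male replicate 2 was as close to the female arrays (0.915 to 0.940) as they were to each other. One array stood apart: the 11 pairs that include large male replicate 3 had r between 0.711 and 0.795, with a mean of 0.751, while the other 55 pairs had a mean of 0.872. Large males accordingly had the widest spread within a group, a pooled SD of 0.424 per probe against 0.277 in females and 0.378 in small males, and without that replicate their SD was 0.338. Values without it are given below for OtL012-B01 and for the contrasts among groups and tissues.

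**Figure D1:**
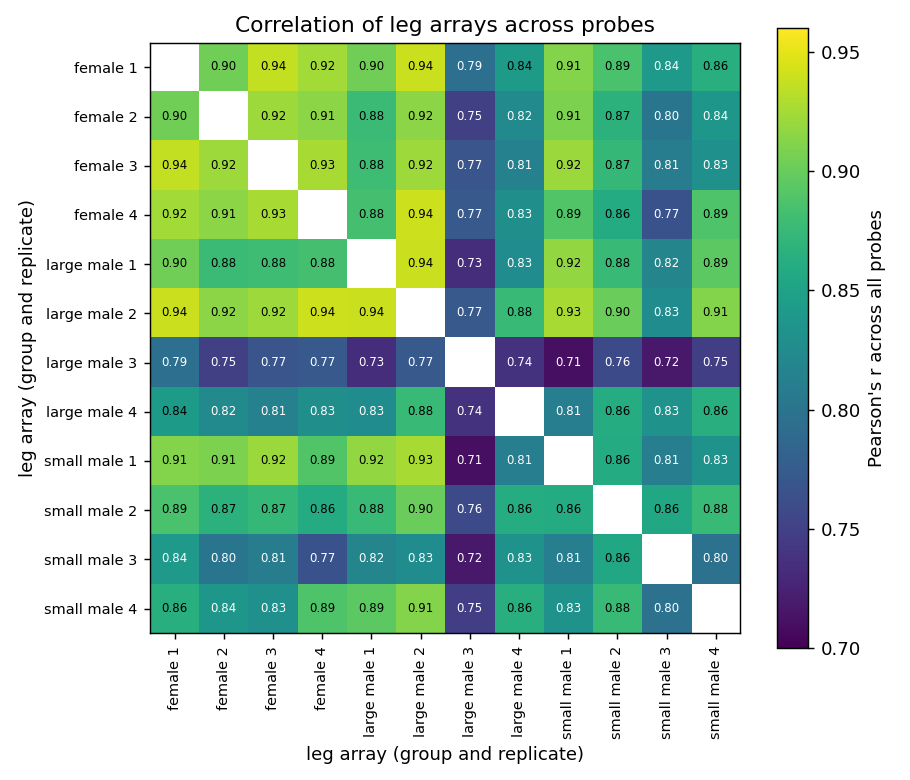
Pearson's r across 3840 probes between each pair of the 12 leg arrays, on a colour scale from 0.70 to 0.96. The row and column of large male replicate 3 hold the lowest values, between 0.711 and 0.795. Female arrays are alike among themselves (0.903 to 0.936), with large male replicate 2 as close to them (0.915 to 0.940). Large male and small male arrays form no blocks of their own.

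The first comparison asks which genes the legs of a pupa use at another level than the abdominal epidermis. Most probes differed. With limma's moderated test on the mean of the 3 group means and Benjamini-Hochberg adjustment over all probes, 2595 of 3840 probes (67.6%) passed the threshold of 0.05, 1438 of them positive (37.4%) and 1157 negative (30.1%). Most of these differences were small: 586 probes (15.3%) were past the threshold and over 2-fold, 259 positive and 327 negative. The tails were uneven. Over 4-fold there were 42 positive and 133 negative probes, over 8-fold 17 and 53, and over 16-fold 10 and 21. Among all probes the median ratio was 0.06, the 1st percentile lay at −3.29 and the 99th at 2.16, so the strongly negative side reached farther from the median than the strongly positive side.

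**Figure D2:**
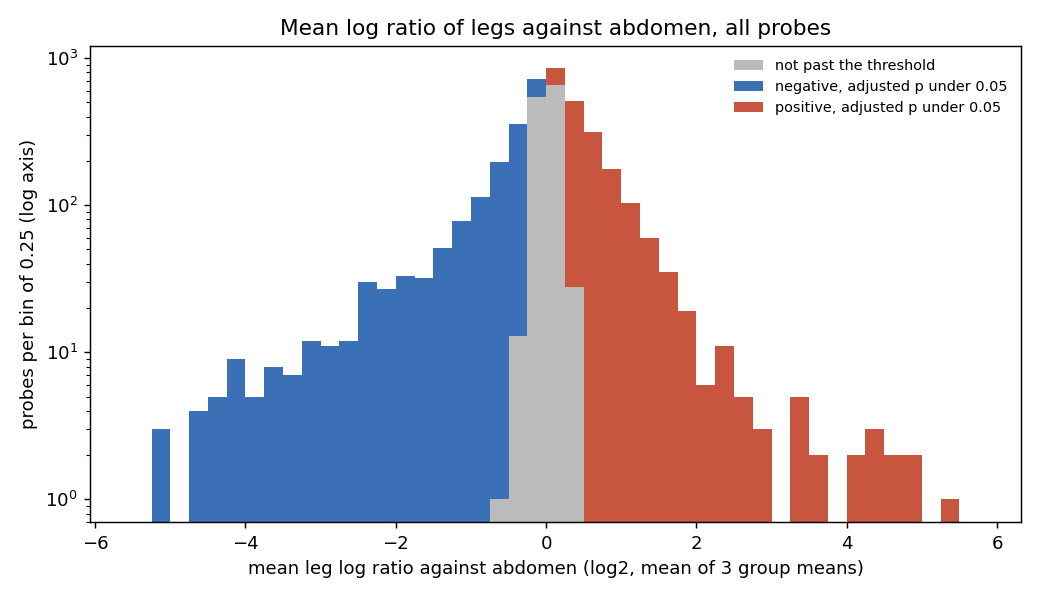
Number of probes (log axis) by mean log2 ratio of legs against abdomen in bins of 0.25, coloured by whether the probe passed an adjusted p of 0.05 and in which direction. Counts fall away more slowly on the negative side, where 133 probes lie past 4-fold against 42 on the positive side.

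The ratios repeated between pools. In all, 1468 probes (38.2%) had the same sign on each of the 12 arrays, 815 of them positive (21.2%) and 653 negative (17%). The dye term of the fit passed its threshold at 133 probes over the 48 arrays, and 2581 of the 2595 called probes kept their sign in both dye orientations. Those probes were called on the mean of the same arrays, so this count is largely fixed by the choice and gives no separate support. The plates differed in their share of called probes, from 39.6% of the 96 probes of OtP002 to 80.2% of OtL015, and the L series had 1388 of 1920 called (72.3%) against 1207 of 1920 (62.9%) in the P series. What the names L and P stand for is not given in the sources used here.

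The 10 largest positive probes fell into a group of 4 and a group of 6 that differed in what they did in other tissues. The first 4, OtL009-F10, OtP013-D03, OtL006-D08 and OtL012-B01, were high against abdomen in legs, head and thorax alike. The 6 others, OtP001-H02, OtP013-D04, OtP013-D01, OtL014-A09, OtP005-A01 and OtP014-A08, were high in the legs and much lower in the head and thorax. Their means ran from 0.22 to 0.74 in the head and from 0.32 to 0.89 in the thorax. The values of the 4 and then the 6 follow, as log2 ratios with the standard error (SE) of the fit. This split was made after the values were seen and carries no test of its own.

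OtL009-F10 had the largest mean of all probes, 5.33 ± 0.31 (mean of 12 leg arrays, SE from the fit of 48 arrays). That is a 40.3-fold difference with an adjusted p of 1.74e-18 in the limma fit. It read 5.19, 5.40, 5.18 and 4.76 on the female arrays, 5.41, 5.56, 5.28 and 5.05 on the large male arrays, and 5.18, 5.24, 6.55 and 5.19 on the small male arrays. Apart from small male replicate 3, at 6.55, the arrays lay within a narrow range and the 3 groups overlapped. The same probe averaged 4.86 over the 12 head arrays and 4.57 over the 12 thorax arrays, and the tested differences between legs and either tissue did not pass (adjusted p = 0.398 and 0.222, limma). The brain, set against ganglia and not abdomen, averaged 2.36 with a range from −1.19 to 4.66. The SD of the probe was 1.97 in brain, against 0.43 in legs, 0.48 in head and 0.55 in thorax. The fit pools these spreads, so the brain arrays widen the SE, and the failed tests do not show the tissues to be alike.

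OtP013-D03 followed with 4.98 ± 0.30, and its 12 leg arrays lay between 4.50 and 5.44. OtL006-D08 was at 4.89 ± 0.24 with leg arrays between 4.58 and 5.36. It was the only probe of these 4 past the threshold against the thorax, by 1.005 ± 0.35 (adjusted p = 0.0296, limma). The brain SDs of these 4 probes, from 1.54 to 1.97, exceed their SDs in legs, head and thorax. They enter the shared spread, widen the SEs and weaken these tests. OtL012-B01 shows what a single array can do: it read 5.14, 5.09, 4.99 and 4.63 in females and 4.99, 4.50, 4.27 and 4.69 in small males, but 5.07, 4.80, 1.48 and 4.76 in large males. Its mean was 4.53 ± 0.31 with large male replicate 3 and 4.83 ± 0.29 without it. Over the 48 arrays of legs, head, thorax and brain these 4 probes had r between 0.867 and 0.973 in the 6 pairs. Their grouping by high values in legs, head and thorax favours a high r. Within the 12 leg arrays, with group means taken out, their r ran from −0.68 to 0.74 with a median of 0.04. In the thorax of the related species O. nigriventris, also measured on this array, their medians were between −0.49 and 0.05.

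The 6 probes higher in legs than in head and thorax had leg means between 4.19 and 4.52, that is 18.3-fold to 22.9-fold. OtP001-H02 read 3.97, 4.66, 4.64 and 4.50 in females, 4.67, 4.82, 5.25 and 3.92 in large males, and 4.10, 5.01, 4.50 and 4.16 in small males. The 3 groups overlapped fully and the mean was 4.52 ± 0.18 (adjusted p = 1.20e-23, limma). In the head the same probe averaged 0.63 (range −0.61 to 3.14) and in the thorax 0.89 (range 0.16 to 2.44), so that legs stood 3.89 ± 0.26 above the head and 3.62 ± 0.26 above the thorax. No leg array came as low as the highest head or thorax array.

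OtP013-D01 stood highest in females. It read 4.62, 6.12, 5.17 and 5.87 on the female arrays, 4.48, 4.40, 4.16 and 2.30 on the large male arrays, and 3.99, 4.38, 3.16 and 4.12 on the small male arrays. Every female array lay above every male array. The difference between females and the mean of both male groups was 1.57 ± 0.41, or 2.97-fold, and did not pass the adjustment over all probes (adjusted p = 0.0985, limma). For OtP013-D04, OtL014-A09, OtP005-A01 and OtP014-A08 the means were 4.40 ± 0.17, 4.37 ± 0.13, 4.21 ± 0.17 and 4.19 ± 0.17, with arrays between 3.01 and 5.10 and overlapping groups. All 6 differed from the head, by 3.62 to 4.01, and from the thorax, by 3.60 to 3.99. In the O. nigriventris thorax their medians lay between −0.14 and 0.49, with single arrays as high as 4.46 (OtP013-D04). Over the 48 arrays their r ran from 0.927 to 0.973 in 15 pairs. Their grouping by high leg values and low head and thorax values favours a high r. Within the leg arrays, less their group means, the median r was 0.65 with a range from −0.12 to 0.89. There OtL014-A09 had r from −0.12 to 0.39 with the others. Such correlations describe the arrays, which share their chemistry and their abdominal comparison, and were not tested.

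The level of these 6 probes in head and thorax was not even across arrays. On female head replicate 2 they read between 2.31 and 3.14, on female thorax replicate 2 between 1.68 and 2.44, and on female brain replicate 2 between 0.79 and 2.02. These are the arrays at the top of the head and thorax ranges given above. For the 5 probes named for the contrast, the legs stood 3.79 to 4.22 above the head without female head replicate 2. Without female thorax replicate 2 they stood 3.74 to 4.15 above the thorax. Leaving out the array where a tissue reads highest raises the difference, so this outcome was fixed by the choice and gives no support.

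The 10 largest negative probes, likely lower in legs than in abdomen, were also strongly negative in head and thorax. OtL011-A04 led with −5.22 ± 0.20 (adjusted p = 1.88e-24, limma), a 37.3-fold difference. It read −4.98, −4.82, −5.59 and −4.74 in females, −5.61, −4.55, −5.24 and −5.41 in large males, and −5.23, −4.87, −6.21 and −5.38 in small males. The groups overlapped. Its head mean was −5.15 and its thorax mean −4.33, and the legs differed from the thorax (−0.89 ± 0.28, adjusted p = 0.0191) but not past the threshold from the head (adjusted p = 0.859, limma).

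OtL002-A12 (−5.17 ± 0.22) and OtL013-B11 (−5.10 ± 0.23) were close to it. OtL013-B11 held the lowest value of any named probe, −7.76 on small male replicate 3, where the other small male arrays read −4.48, −4.58 and −5.30. The remaining 7, from OtP019-B01 at −4.72 ± 0.14 through OtL013-C03, OtL006-A08, OtL015-C02, OtL005-F06 and OtP001-H03 to OtL004-F05 at −4.43 ± 0.15, lay on all leg arrays between −6.26 and −2.97. Over these 10 probes the head means ran from −5.34 to −3.65, the thorax means from −5.24 to −3.59, and the brain means, against ganglia, from −0.69 to 1.62. Strongly negative ratios were shared by the 3 tissues set against abdomen, and no brain array, on which ganglia took the place of abdomen, went below −1.62. The legs differed from the head at 5 of the 10 and from the thorax at 4 of the 10, by −1.13 to 0.85.

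Dye orientation touched 1 of the 20 leading probes. OtL015-C02 averaged −3.997 on the arrays with legs in Cy5 and −5.01 on those with legs in Cy3, and its dye term was 0.71 (adjusted p = 0.00624, limma). Both orientations were strongly negative.

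**Figure D3:**
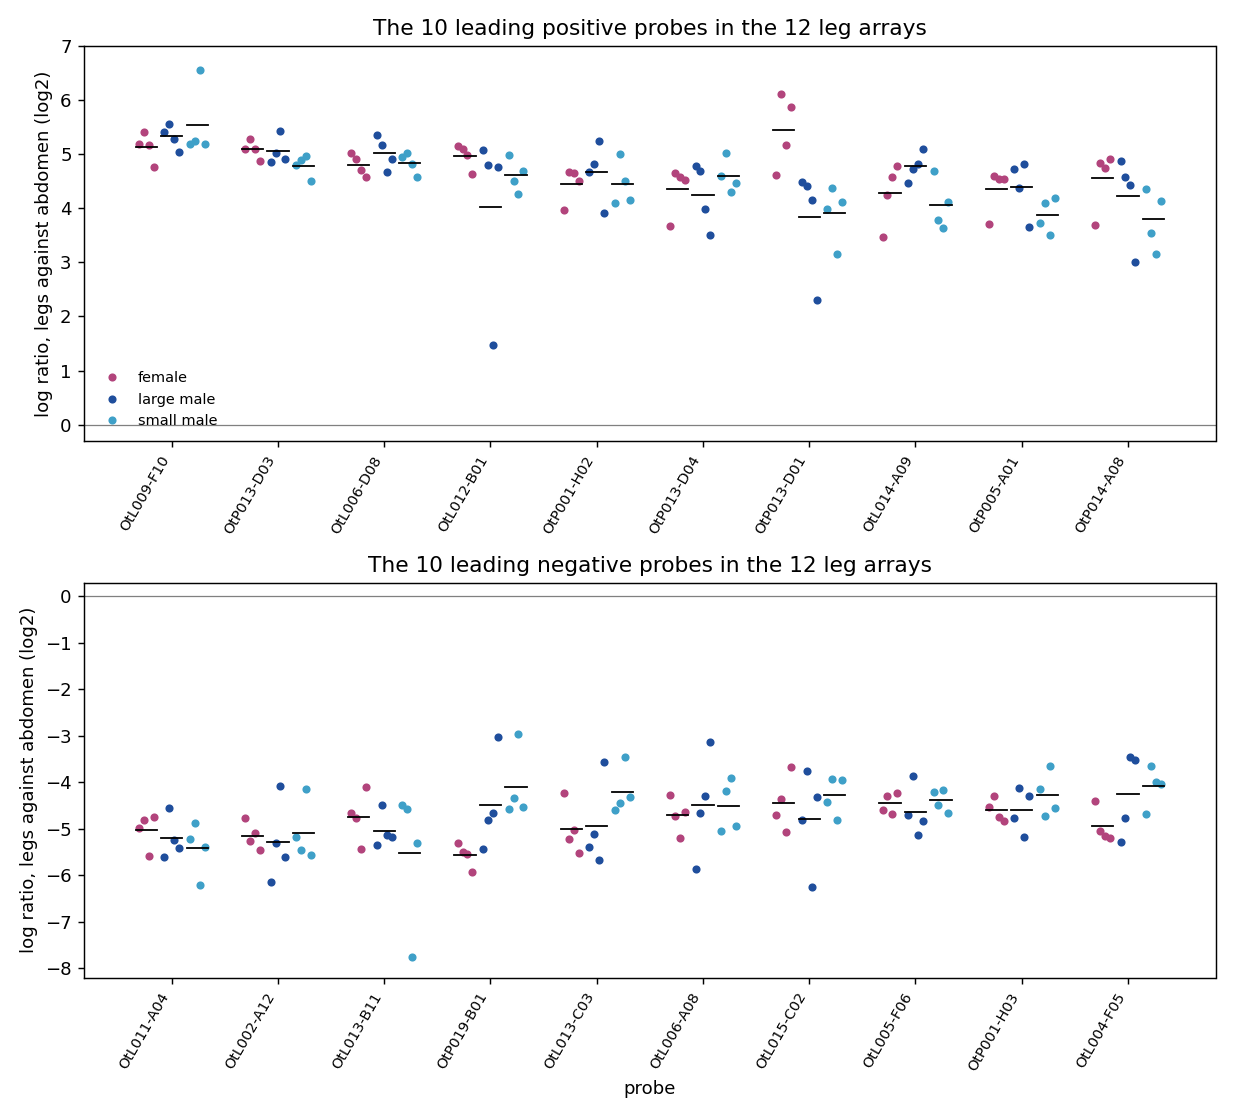
Log2 ratio of legs against abdomen on each of the 12 arrays for the 10 leading positive probes (top) and the 10 leading negative probes (bottom); points are arrays coloured by group and bars are group means of 4 arrays. The groups overlap at nearly every probe, OtP013-D01 is higher in all 4 female arrays, and OtL012-B01 is at 1.48 on large male replicate 3.

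Each sex and male form was then taken on its own, which asks whether the legs of that form differ from its abdomen. In females 2186 probes passed (56.9%), 1235 positive (32.2%) and 951 negative (24.8%). In large males 1918 passed (49.9%), 1036 positive (27%) and 882 negative (23%). In small males 1901 passed (49.5%), 1047 positive (27.3%) and 854 negative (22.2%). Over 2-fold were 676 of the called probes in females (17.6% of all probes), 572 in large males (14.9%) and 570 in small males (14.8%). The 3 groups share 1 estimate of spread per probe in the fit, and the SD over probes of the group mean was 0.950 in females, 0.897 in large males and 0.872 in small males. Whether the counts differ between groups was not tested as such.

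The lists overlapped widely. In all 3 groups 1486 probes passed with the same sign, 795 positive and 691 negative, which is 68.0% of the female list, 77.5% of the large male list and 78.2% of the small male list. A further 379 passed in females only, 169 in large males only and 151 in small males only, but passing in 1 group and not in another does not show a difference, and the tests of the differences follow. Past the threshold with opposite signs in 2 groups were 3 probes, named here after their values were seen. OtP006-F01 was 1.36 in females and −1.31 in small males, OtP001-G07 was 0.33 and −0.37, and OtP011-B01 was −0.25 and 0.29.

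OtP006-F01 varied widely within groups. It read 3.28, 0.57, 1.09 and 0.52 in females, 0.48, 0.53, 2.93 and −2.37 in large males, and 0.60, −1.96, −1.20 and −2.70 in small males. Its values also differed by dye orientation, with a mean of 1.20 on arrays with legs in Cy3 and −0.90 with legs in Cy5. The dye term of this probe was −0.68 and did not pass the threshold (adjusted p = 0.0869, limma). How much of the spread within groups goes with dye orientation was not tested. Large males alone spanned −2.37 to 2.93, and the F test over the 3 groups did not pass (adjusted p = 0.113, limma), though it did without large male replicate 3 (adjusted p = 0.0137), large male replicate 4 (adjusted p = 0.00293) or small male replicate 1 (adjusted p = 0.00754).

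The F test asks whether the leg ratio differed in any way among females, large males and small males. A single probe passed, OtP013-H01 (adjusted p = 0.0124, limma), which is 0.026% of all probes, while 388 had an unadjusted p under 0.05. It did not pass without female replicate 2, 3 or 4, with arrays scaled to one spread or in the fit of leg arrays alone, and the number of calls without other arrays reached 13 (without small male replicate 1). A difference in a ratio between groups can lie in the legs, in the abdomen or in both, and these cannot be told apart here, since each form was set against its own abdomen.

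Large and small males, which differ in horns and in mating behaviour, showed no difference in their leg ratios that passed the threshold. limma called 0 of 3840 probes (0%), with 235 at an unadjusted p under 0.05 and a smallest adjusted p of 0.386. The precision was limited by 4 arrays a group: the median SE of the difference was 0.198. For 3406 probes (88.7%) the 95% interval of the difference lay within 2-fold in either direction. A difference below the threshold is not shown to be absent.

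The 5 probes of smallest p in the contrast between male forms are given as values. OtL004-D05 was 0.55 ± 0.13 higher in large males, or 1.47-fold. It read 1.85, 1.996, 2.03 and 2.26 in large males and 1.14, 1.78, 1.22 and 1.78 in small males, so that the forms did not overlap, and females lay across both at 1.65, 1.84, 1.65 and 2.04. Its dye term was 0.25 (adjusted p = 0.00549, limma), which does not enter the contrast because both orientations were balanced in each group.

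OtL020-C09 read 0.56, 0.36, 1.38 and 1.002 in large males against 0.04, 0.05, 0.17 and 0.30 in small males, a difference of 0.69 ± 0.18 without overlap, and of 0.51 ± 0.18 when large male replicate 3 was left out. OtP004-G08 lay lower in large males, at −0.92, −1.14, −2.57 and −0.90 against −0.40, −0.64, −0.01 and −0.81, a difference of −0.92 ± 0.25. Without large male replicate 3, which read −2.57, it was −0.51 ± 0.21. In OtP019-A10 (−0.93 ± 0.23) and OtL020-F01 (−1.29 ± 0.33) the forms overlapped, and without that array the differences were −0.76 ± 0.24 and −0.89 ± 0.32. Leaving it out gave 0 calls over all probes, while array weights gave 8. Among all probes every large male array lay below every small male array at 45 (1.17%) and above at 25 (0.651%).

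Females and males differed at few probes in the legs. Against the mean of both male groups, 8 of 3840 probes passed (0.208%), 7 lower and 1 higher in females, and 6 of them differed by over 2-fold. At an unadjusted p under 0.05 there were 460. For 3432 probes (89.4%) the 95% interval lay within 2-fold in either direction. The count and its direction depended on the setting. Fitting only the leg arrays, or scaling the arrays to one spread, left 0 calls. Array weights gave 186, of which 88 were higher and 98 lower in females, and a fixed replicate block gave 47, of which 25 were higher and 22 lower. The number of calls also hung on single arrays. Leaving out female replicate 1 gave 15, and leaving out female 2, 3 or 4 gave 1, 0 and 0. Removing large male 2, 3 or 4 gave 14, 11 and 1, and removing small male 1, 2, 3 or 4 gave 29, 4, 1 and 1.

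OtP013-H01 was the leading probe of the sex contrast. It read −1.26, −2.42, −2.35 and −3.01 in females, −0.36, −0.94, −0.21 and −0.14 in large males, and −1.45, −1.40, −0.30 and −0.28 in small males. The female mean of −2.26 ± 0.73 (SD, n = 4) lay below the large male mean of −0.41 ± 0.36 and the small male mean of −0.86 ± 0.65, though female replicate 1 lay within the small male range. The difference was −1.62 ± 0.28 (SE), 3.08-fold, with an adjusted p of 0.00372 (limma). It no longer passed without female replicate 3 (adjusted p = 0.0683) or 4 (adjusted p = 0.0716), nor in the fit of leg arrays alone (adjusted p = 0.113).

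OtP019-B06 was the only probe of the 8 that was higher in females. Its female values were 0.45, 0.73, 0.74 and 0.44, while large males read −0.07, 0.12, 0.15 and 0.03 and small males 0.22, 0.10, −0.04 and −0.09. No male array reached the lowest female array, and the ratio in males was close to 0. The difference was 0.54 ± 0.11, or 1.45-fold (adjusted p = 0.0288, limma).

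OtP016-G09 was negative on all 4 female arrays and near 0 in males. Females read −0.90, −1.06, −1.34 and −1.12, large males 0.44, 0.19, −0.39 and −0.01, and small males −0.19, −0.15, 0.07 and 0.30. The groups did not overlap and the difference was −1.14 ± 0.24 (adjusted p = 0.0288, limma). OtP008-H01 had the same shape, with females at −1.20, −1.05, −1.64 and −1.39 and males between −0.79 and 0.21 (−1.13 ± 0.25, adjusted p = 0.0364).

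OtP019-H01 was negative in all 3 groups and more so in females. Females lay at −1.82, −2.43, −2.34 and −2.84, large males at −1.57, −1.48, −1.11 and −0.77, and small males at −1.62, −1.24, −0.72 and −0.97. The lowest male array was above the highest female array, and the difference was −1.17 ± 0.25 (adjusted p = 0.0288, limma). Over all probes every female array lay below every male array at 38 (0.99%) and above at 25 (0.651%), so that a lack of overlap alone is seen at other probes as well.

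The other 3 calls lay outside the 5 of smallest p and are named after their values were seen. OtP012-B01 differed by −1.49 ± 0.33 (adjusted p = 0.0364), with females between −2.70 and −1.29, but small male replicate 1 read −1.66, within the female range, and the call was lost without large male replicate 3 (−1.37 ± 0.33, adjusted p = 0.0658). OtP019-B01, 1 of the 10 leading negative probes, differed by −1.27 ± 0.29 (adjusted p = 0.0417): females lay between −5.92 and −5.30 and large male replicate 1, at −5.44, lay among them. OtP001-D12 differed by −0.70 ± 0.16 (adjusted p = 0.0473) and its female replicate 1, at −0.99, lay above small male replicate 1, at −1.17.

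All 8 probes belonged to the P series, which holds 1920 of the 3840 probes. Of the 8, 5 came from the first well column of their plates, which holds 320 probes (8.33%). In that column 17.5% of probes had an unadjusted p under 0.05 in the sex contrast, while the other columns had between 7.19% and 14.7%, and the median SE was 0.195 against 0.155 to 0.183. The part of well position in the sex calls was not tested.

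**Figure D4:**
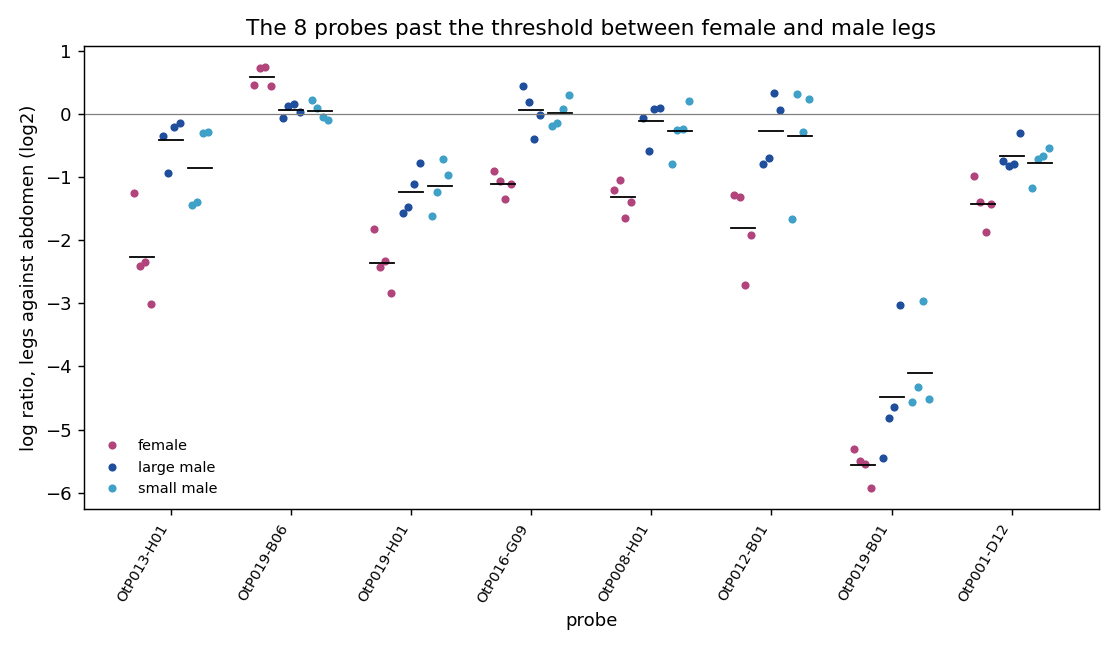
Log2 ratio of legs against abdomen on each of the 12 arrays for the 8 probes past the threshold between females and the mean of both male groups; points are arrays and bars are group means of 4 arrays. Female arrays are clear of male arrays at OtP019-B06, OtP019-H01, OtP016-G09 and OtP008-H01 and overlap 1 or more male arrays at the other 4.

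The head and thorax arrays were set against abdomen in the same way, so the legs could be tested against each of them within the fit. Abdomen stands in all these ratios, and a shared abdominal level makes the 3 tissues look alike. The contrasts below take the abdomen out as far as its pools agree. The legs differed from the head at 1827 probes (47.6%), 921 above and 906 below, and 269 (7.01%) did so by over 2-fold. From the thorax they differed at 873 probes (22.7%), 470 above and 403 below, and 148 (3.85%) did so by over 2-fold. Without large male leg replicate 3 there were 1885 calls against the head and 996 against the thorax.

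Above both head and thorax were 331 probes (8.62%), and below both 244 (6.35%). In 44 (1.15%) the legs lay above one and below the other. Of the 331 above both, 223 were themselves positive against abdomen, 48 negative and 60 not past the threshold. Of the 244 below both, 154 were negative, 54 positive and 36 not past the threshold. Over all probes 37.4% were positive and 30.1% negative. The leg mean enters both contrasts, which favours positive probes above and negative probes below.

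By over 2-fold in both contrasts, 34 probes lay above (0.885%) and 40 below (1.04%). Of the 34, 26 were of the P series, and of the 40, 18 were, while that series holds 1920 of the 3840 probes. The smaller difference of the 34 had a median of 1.57. They were led by the 6 leg-high probes described above, after which the values dropped. OtP011-G01, at 3.35 ± 0.20 in legs, stood 2.86 above the head and 2.80 above the thorax, and OtL003-A11, at 2.66 ± 0.15, stood 2.56 and 2.67 above them. For the other 26 the smaller difference ran from 1.01 to 1.98. OtP011-G01 and OtL003-A11 are named after their values were seen.

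OtL003-A11 varied between forms without a call. It read 2.23, 4.11, 3.29 and 3.45 in females, 2.96, 2.43, 2.61 and 1.43 in large males, and 3.26, 2.14, 1.23 and 2.74 in small males. OtP011-G01 was steadier, with 3.34, 3.84, 3.67 and 4.13 in females and males between 2.49 and 3.79.

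Of the 34, 3 were negative in legs, though less so than in head and thorax. Over all probes 30.1% were negative in legs, a share that choosing probes high in legs lowers. OtL002-E04 was at −0.67 in legs, −2.56 in head and −2.24 in thorax. OtL012-E09 was at −0.69, −1.96 and −1.73, and OtP007-B07 at −0.72, −2.07 and −2.37. These too were picked by their values.

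The probes farthest below both other tissues were of another kind. At 4 of the 5 named by rule the leg mean was 0.02 to 0.57 while head and thorax were strongly positive. OtP011-E02 averaged 3.93 in the head (range 1.34 to 5.41) and 4.11 in the thorax (range 2.80 to 5.47). In legs it read −0.03, 0.67, 0.18 and −0.54 in females, 0.23, −0.10, 1.03 and 0.88 in large males, and 0.54, 0.27, 0.04 and −0.47 in small males, and its mean of 0.23 ± 0.19 did not differ from abdomen past the threshold (adjusted p = 0.298, limma). Every leg array lay below every head and thorax array, by 3.71 ± 0.27 and 3.89 ± 0.27 in the means.

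OtP015-A03 averaged 4.48 in the head and 3.76 in the thorax. Its leg arrays lay between −0.42 and 1.24 with a mean of 0.42 ± 0.14, that is −4.06 ± 0.20 against the head and −3.34 ± 0.20 against the thorax. That leg mean passed as positive against abdomen (adjusted p = 0.00911, limma). OtP005-C05 averaged 3.48 in head arrays and 2.58 in thorax arrays but 0.57 ± 0.18 in legs, also past the threshold (adjusted p = 0.00577, limma). Its leg arrays were between 0.11 and 0.88 except female replicate 2, which read 2.51.

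OtL010-G09 averaged 1.998 in head arrays and 2.005 in thorax arrays but 0.02 ± 0.09 in legs, with all 12 leg arrays between −0.31 and 0.36. OtL017-G01 was the exception among the 5: near 0 in head (0.57) and thorax (0.25), it was negative on every leg array, between −2.50 and −1.32, with a mean of −1.84 ± 0.26. Its brain mean of 1.81 against ganglia rests partly on 1 array at 7.34.

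For the other 35 probes over 2-fold below both tissues the smaller difference ran from 1.001 to 1.93. Over all 3840 probes, 30.1% were negative and 37.4% positive in legs, and choosing probes low in legs favours negative ones. Among all 40, 25 were negative in legs, 12 positive and 3 not past the threshold against abdomen. Those 3 were OtP011-E02 and OtL010-G09, given above, and OtP015-E12, which was at −0.33 ± 0.19 in legs, 0.86 in the head and 0.69 in the thorax and is named after its values were seen.

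**Figure D5:**
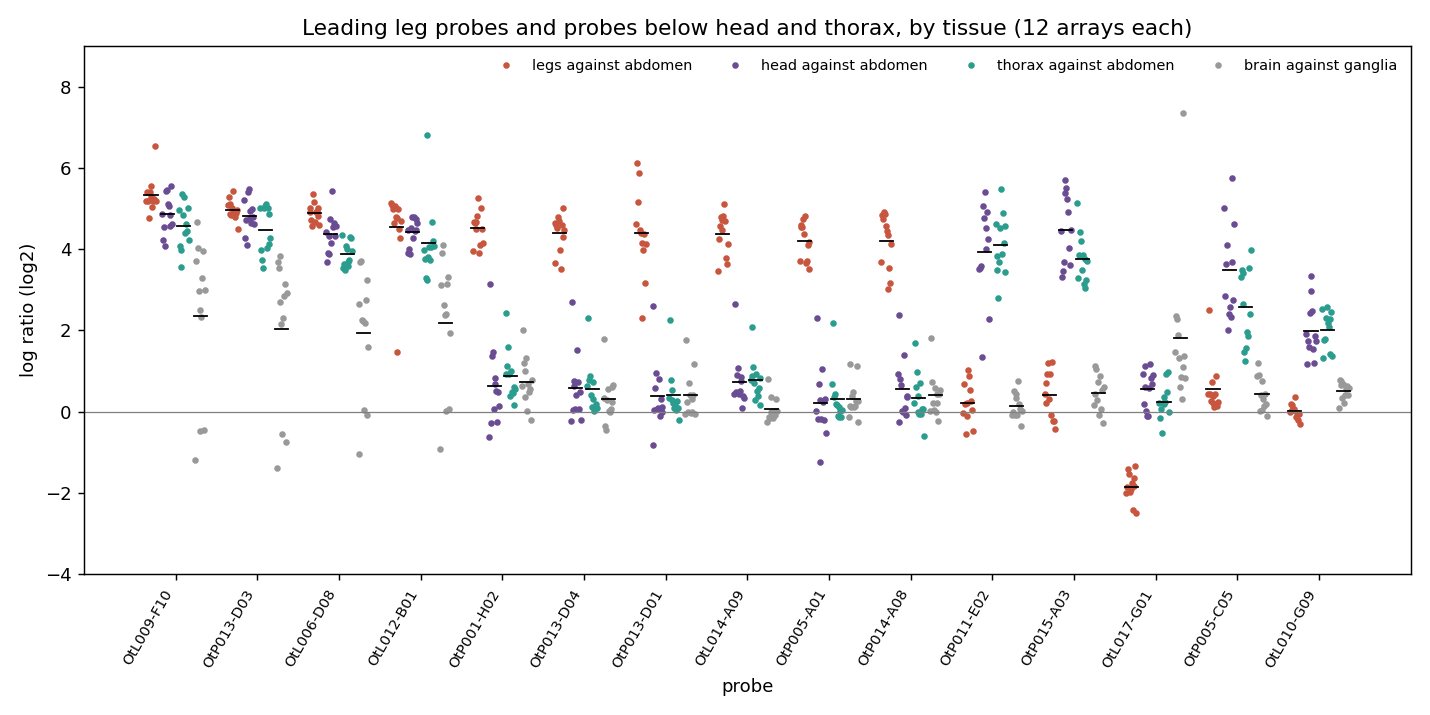
Log2 ratios on the 12 arrays of each tissue for the 10 leading positive leg probes and the 5 probes farthest below head and thorax; points are arrays, bars are means, and brain was set against ganglia while the other tissues were set against abdomen. The first 4 probes are high in legs, head and thorax. The next 6 are high in legs and much lower in head and thorax. OtP011-E02, OtP015-A03, OtP005-C05 and OtL010-G09 are high in head and thorax with leg means of 0.02 to 0.57.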

How the data were processed

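RNA from legs and abdomen was amplified with T7 polymerase, labelled with Cy5 or Cy3 and hybridised to 2-colour arrays, per the labels' protocols. The values are log ratios as deposited in the series' value table, on a log2 scale if limma, the tool in the submitters' processing notes, made them. The sources used here do not give the background correction, the normalization or the direction of the ratio. Over 6 digits were stored for 99.1% to 99.6% of values on the 6 leg arrays with legs in Cy5 and for 0% on the 6 with legs in Cy3, so the orientations were handled differently before deposit.

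limma 3.58.1 in R 4.3.3 (lmFit, eBayes) was fitted to the 48 O. taurus arrays that set a tissue against abdomen or ganglia, with a mean for each of 12 groups of 4 and a dye term. All groups, those of brain included, share 1 estimate of spread per probe. No probe was filtered. Tests were two-sided with Benjamini-Hochberg adjustment over 3840 probes and a threshold of 0.05, and the steps were tested on simulated data. Spot intensities were not analysed here, and the number of arrays limits the precision. Python 3.11.15 with matplotlib 3.10.9 drew the plots.

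The probes named are the 10 largest positive and 10 largest negative leg means among called probes with 1 sign on all 12 arrays, the 5 of smallest p in each contrast among leg groups, and the 5 largest values of each sign of the smaller difference from head and thorax. The comparison and these rules were chosen with earlier results of these data known. Alternatives were centring or scaling each array, no dye term, only the arrays compared, array weights, replicate blocks, and leaving out each array in turn.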

Additional observations from a re-analysis of the deposited data

Results flagged for a closer look

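Among the named probes 114 groups of 4 leg arrays were checked for a single array far from its group, and 11 (9.65%) had one. The nominal rate of the check is about 1 in 20. The named probes were chosen by their values and share the same arrays, so these rates cannot be compared. The share over all probes was not worked out. Large male replicate 3 was low at OtL012-B01 (1.48) and OtP004-G08 (−2.57), and large male replicate 4 was the odd one at OtP013-D01 (2.30) and OtP001-D12 (−0.30). Small male replicate 3 stood apart at OtL009-F10 (6.55) and OtP019-B01 (−2.97), and small male replicate 1 at OtP015-A03 (1.24). Female replicate 1 was low at 3 of the 6 leg-high probes, OtP013-D04 (3.67), OtP005-A01 (3.72) and OtP014-A08 (3.70), and female replicate 2 was high at OtP005-C05 (2.51).

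Females and males differed by the test of the difference itself at the 8 probes already described: OtP013-H01 (−1.62), OtP019-B06 (0.54), OtP019-H01 (−1.17), OtP016-G09 (−1.14), OtP008-H01 (−1.13), OtP012-B01 (−1.49), OtP019-B01 (−1.27) and OtP001-D12 (−0.70).

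The leg effect differed from that of head and thorax, by the limma contrast, at the 10 probes named for it. Above the head, then the thorax, were OtP013-D01 (4.01 and 3.99), OtP005-A01 (3.99 and 3.89), OtP013-D04 (3.82 and 3.85), OtP014-A08 (3.63 and 3.85) and OtP001-H02 (3.89 and 3.62). Below them were OtP011-E02 (−3.71 and −3.89), OtP015-A03 (−4.06 and −3.34), OtL017-G01 (−2.41 and −2.09), OtP005-C05 (−2.91 and −2.01) and OtL010-G09 (−1.98 and −1.99).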

How the results depend on the processing

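The counts of probes past the threshold for legs against abdomen, for each leg group and for legs against head stayed within 1.5 times under each alternative run other than a 2-fold size, while those against thorax also moved with array weights, which gave 1310. Asking for a 2-fold size left 586 for all legs, 676 in females, 572 in large males, 570 in small males, 269 against head and 148 against thorax. Centring each array on its median gave 2584 calls for all legs, 1313 positive and 1271 negative.

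The contrasts among leg groups depended on the processing. The F test had 0 calls with arrays scaled to one spread, 0 with only the arrays compared and 139 with array weights, and 0 to 13 when single arrays were left out (3 without large male replicate 3 or 4). The contrast between male forms had 8 calls with array weights, 3 positive and 5 negative, and 0 to 1 without single arrays, the 1 arising without large male replicate 4, small male 1 or small male 4. The sex contrast had 0 calls with scaled arrays, 0 with only the arrays compared, 186 with array weights (88 positive and 98 negative) and 0 to 29 without single arrays. The cause of these shifts was not tested. Fitting fewer arrays leaves fewer degrees of freedom.

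Leaving out single arrays, counts ran from 2482 to 2587 for all legs, 1857 to 2222 in females, 1653 to 1920 in large males, 1573 to 1951 in small males, 1707 to 1894 against head and 797 to 996 against thorax. Without large male leg replicate 3 together with female thorax replicate 2, a setting chosen after seeing the data, the thorax contrast had 953 calls, and with female head replicate 2 the head contrast had 1861.

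Replicate numbers are shared by the groups, and nothing in the labels ties them to a shared batch. Deviations from the group means of same-numbered leg and head arrays correlated with r from 0.02 to 0.53 (over 0.1 in 8 of 12 pairs, and 10 of 12 leg arrays correlated best with their own number), those of leg and thorax arrays with r from −0.19 to 0.54 (9 and 8 of 12) and those of leg and brain arrays with r from −0.25 to 0.15 (3 and 2 of 12). The head and thorax values hint at a shared factor behind the numbers, but not every pair was over 0.1, the condition set for pairing, so the fit without a block was kept as the main one. With the number as a random block (consensus correlation 0.0546) the counts were 2592 for all legs, 1877 against head, 931 against thorax and 7 for sex. With a fixed replicate block on the epidermal arrays they were 2664, 1911, 1036 and 47 (25 positive and 22 negative), with 7 for the F test and 1 for the male forms.

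Over the named probes, alternatives left 1275 values on the same side of the threshold, 73 lost a call, 14 gained one and 0 turned sign. The 20 leading probes and the 10 named against head and thorax kept their calls in every alternative. They were chosen for the largest values, so this outcome was largely fixed by the choice. Each of the 8 sex calls was lost in 4 to 12 of 19 alternatives, OtP013-H01 least often and OtP001-D12 most often.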
